A study of Rattus norvegicus with 12 samples.

Results

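Genes of the interleukin 6 (IL-6) and interleukin 1 (IL-1) cytokine families were compared between colony derived cells and A16 cells of the rat fibroblast line F111. The 10 genes were chosen by name as ligands, receptors and an inhibitor of these families, namely Il6, Lif, Il11, Il1a, Il1b, Il33, Il1rl1, Il6st, Osmr and Socs3. Their probe sets were those whose single gene symbol in the array annotation is one of these names, which gave 15 of 31042 probe sets tested and 9 of 14217 genes. Osmr, the oncostatin M receptor, had no such probe set and was not analysed here.

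Colony cells were F111 cells that had been kept in suspension (NA16 cells), were then grown in soft agar for 7 days, and had only a short time to attach again once out of it. A16 cells were F111 cells that had been detached with trypsin, plated on plastic and collected 16 h later as adherent cells. Both groups descend from 1 line. Time in agar, time in suspension and time of attachment all differ between them. The paper also reports a chromosome translocation in a minority of the adherent cells and in all colony cells examined, and describes clonal selection. The groups thus differ in karyotype as well as in culture. These differences cannot be told apart here, and the part of karyotype in the results was not tested. Each group had 3 Affymetrix rat arrays, of biological replicate 1, of technical replicate 2 and of biological replicate 2, and array values are given in that order throughout. The technical array and biological replicate 1 of a group were joined as the mean of their log2 values, and each group then counted n = 2 cultures. For the Colony array of biological replicate 2, 1 label field speaks of tumour formation where the others name colony cells, and the 3 called probe sets of the 10 genes are therefore also given without it. The same fit was checked for 24 called probe sets, of the partners and of the lists below other than the cell markers. A list gene counted by its brightest probe set, and dimmer probe sets of list genes that are not partners were left out of this check. Of the 24, only Junb fell under the fold threshold given below without that array, at a log2 fold change of -0.89. Such a fit has 1 Colony culture, which is assumed to vary like the A16 cultures.

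The values are RMA intensities, a summary of the brightness of the probes of a gene on a linear scale, and the median probe set of an array lay between 97.6 and 101. A fold change (FC) is given as log2 of Colony over A16, with its standard error (SE) and the p-value of limma after Benjamini-Hochberg adjustment across the 31042 probe sets. A probe set was called higher or lower in Colony cells where the adjusted p was under 0.05 and the fold above 2. The probe set number is given as in the annotation, since intensities of different probe sets cannot be set against each other.

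The cytokines of the IL-6 family bind a receptor of their own and then share the signalling chain gp130, the product of Il6st, which turns on JAK kinases and the transcription factor STAT3. Socs3 is made in response to STAT3 and shuts the same receptor down. The cytokines of the IL-1 family act through paired receptors, such as IL-1R1 and ST2 (Il1rl1) with the shared partner Il1rap, and turn on NF-kB. Fibroblasts answer IL-1 with IL-6, chemokines and matrix proteases, and so connect both families.

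Among the 15 probe sets, 1 was called higher in Colony cells, a probe set of Il6st, against 4.0% of all probe sets. Another 2 were called lower, 1 of Il6 and 1 of Il1rl1, against 5.81% of all probe sets, and 9.81% of all were called in either direction. With no fold threshold, 5 of the 15 had an adjusted p under 0.05, against 22.7% of all. Every Colony array lay above every A16 array for 4 of them, against 25.4% of all, and below for 5, against 20.5% of all. The arrays of the other 6 overlapped. With a gene represented by its brightest probe set, 1 of 9 genes was higher (4.36% of all genes) and 2 were lower (4.75% of all genes). The median log2 FC of the 15 probe sets was -0.06, beside 0.05 over all probe sets. These are small counts, and the results below rest on single genes. The shares of 4.36% higher and 4.75% lower also hold as the measure for the called genes of every list below.

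**Figure D1:**
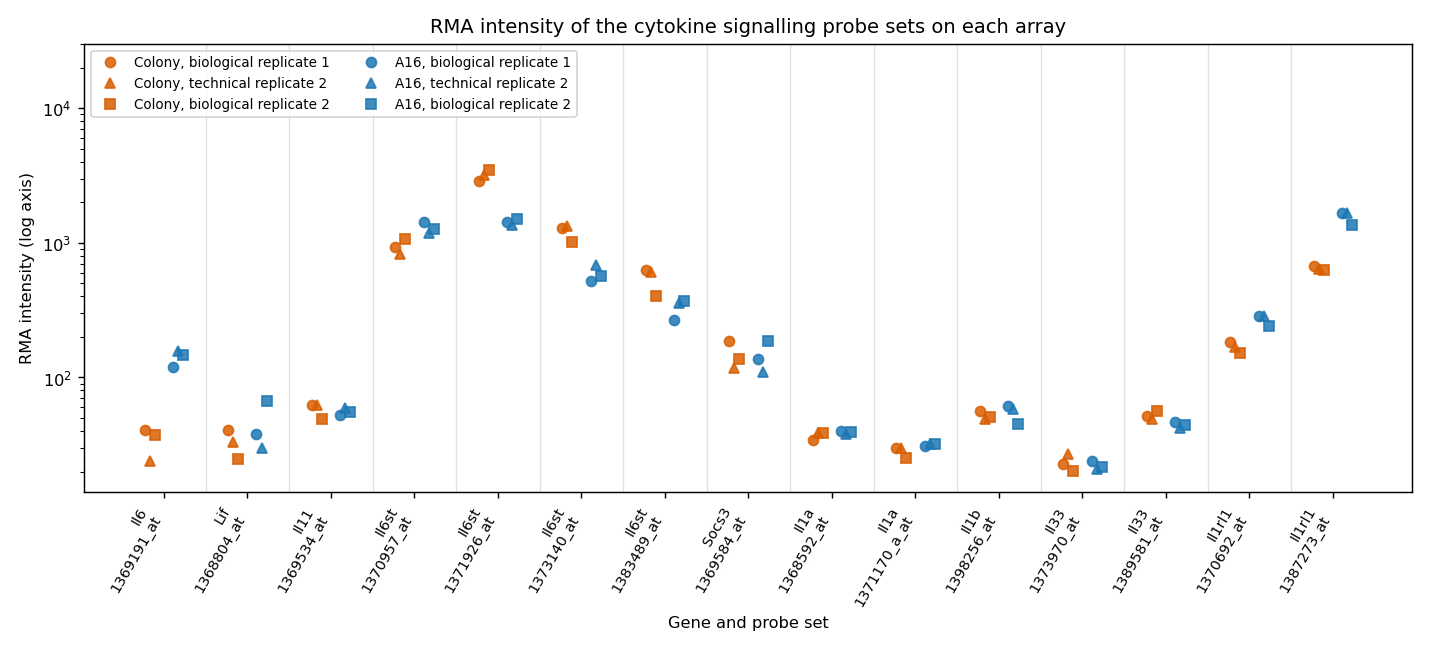
RMA intensity (log axis) of the 15 probe sets on each of the 6 arrays, Colony arrays in orange to the left of A16 arrays in blue; circles are biological replicate 1, triangles technical replicate 2 and squares biological replicate 2. The Colony arrays lie apart from the A16 arrays for Il6 (23.9 to 40.8 in Colony, 119 to 157 in A16), for both Il1rl1 probe sets and for the 4 Il6st probe sets, 1 of which runs the other way. By small steps they also lie apart for Il33 1389581_at (Colony above) and Il1a 1371170_a_at (Colony below).

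Il6, the cytokine that gives the family its name, was the member with the lowest FC. Its probe set 1369191_at had intensities of 40.8, 23.9 and 37.4 on the Colony arrays, against 119, 157 and 148 on the A16 arrays. All Colony arrays lay below all A16 arrays, and the levels did not overlap. The mean log2 intensity was 5.10 ± 0.18 in Colony cells and 7.16 ± 0.08 in A16 cells (SD, n = 2 each). This was a log2 FC of -2.06 (SE 0.15, 95% interval -2.41 to -1.71), a 4.17-fold lower level, with an adjusted p of 0.000199. Without Colony biological replicate 2 it was -2.19 (adjusted p = 0.000632).

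The level of Il6 was moderate even in A16 cells. Its probe set stood at the 53.3 to 57.6 percentile of all probe sets on the A16 arrays, and at the 8.15 to 25.5 percentile on the Colony arrays. Whether the Colony level lies above background was not analysed here. PLIER, the other summary that the authors made of the same arrays, gave 21.8, 22.3 and 30.2 on the Colony arrays against 130, 175 and 159 on the A16 arrays. As log2(value + 16) these gave a log2 FC of -2.03 (adjusted p = 0.000593). The call held in all 14 alternatives that tested Il6, with log2 FC between -2.58 and -1.77.

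Il6 and Il1rl1 were the genes of the 10 with a probe set lower in Colony cells, and their upstream windows are shown for that reason. Each is the 250 bases before the gene's start, 5′ to 3′ on the gene's strand, from RefSeq with build GRCr8. The Il6 window is chr4:5894576-5894825 on the minus strand and the Il1rl1 window is chr9:50203388-50203637 on the plus strand. Capitals mark matches to 5 motifs searched on both strands, namely AP-1 (TGACTCA or TGAGTCA), the cyclic AMP response element CRE (TGACGTCA), C/EBP (TTGCNNAA), STAT (TTCNNNGAA) and the NF-kB motif.
Il6: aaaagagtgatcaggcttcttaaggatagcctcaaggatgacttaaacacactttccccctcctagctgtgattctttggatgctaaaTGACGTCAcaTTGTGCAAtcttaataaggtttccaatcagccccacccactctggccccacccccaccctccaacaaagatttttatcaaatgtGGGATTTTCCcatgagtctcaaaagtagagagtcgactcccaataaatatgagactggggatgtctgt
Il1rl1: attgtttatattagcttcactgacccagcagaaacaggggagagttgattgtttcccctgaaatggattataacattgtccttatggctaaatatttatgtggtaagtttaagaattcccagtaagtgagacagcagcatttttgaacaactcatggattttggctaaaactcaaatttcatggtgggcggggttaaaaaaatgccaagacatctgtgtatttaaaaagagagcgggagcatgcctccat

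The Il6 window held a CRE that begins 162 bases before the start, a C/EBP match at 152 and an NF-kB match at 68, and neither AP-1 nor STAT. The Il1rl1 window held none of the 5. Of 33469 windows of the same length, 1.59% held the CRE, 9.22% the C/EBP motif, 6.33% the NF-kB motif, 4.05% the AP-1 motif and 7.67% the STAT motif. A match describes these letters only, and binding was not measured.

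Lif, which keeps stem cells undifferentiated in mouse and signals through Lifr and gp130, had intensities of 40.7, 33.3 and 25.0 on the Colony arrays, against 38.0, 30.1 and 66.4 on the A16 arrays. The groups overlapped, and 1 A16 array stood above the rest. The log2 FC was -0.64 (SE 0.33, 95% interval -1.43 to 0.14, adjusted p = 0.23). The value turned on the A16 cultures. Without A16 biological replicate 1, with 1 A16 array left and the spread taken from the Colony cultures, the log2 FC was -1.13 (adjusted p = 0.00899). Without A16 biological replicate 2 it was -0.16 (adjusted p = 0.809).

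Il11, the family member that acts through Il11ra1, had intensities of 62.8, 62.6 and 49.4 on the Colony arrays, against 53.0, 59.3 and 55.3 on the A16 arrays. The groups overlapped, with a log2 FC of 0.00 (SE 0.16, 95% interval -0.37 to 0.37, adjusted p = 0.997). The probe set stood at the 31.6 to 39.2 percentile on all arrays, and whether a lower level could have shown there was not analysed here.

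Ctf1, cardiotrophin 1, was the other called ligand of the IL-6 family. It had intensities of 157, 124 and 133 on the Colony arrays, against 450, 374 and 531 on the A16 arrays, with no overlap and a log2 FC of -1.78 (SE 0.16, adjusted p = 0.000572). Over the family's ligands, 0 of 8 measured genes rose, 2 fell (Il6 and Ctf1) and 6 did not pass the test. At an unadjusted p under 0.05, limma put 1 of the 8 higher and 2 lower, where 19.4% of all genes were higher and 15.9% lower. The median log2 FC of the 8 was 0.05, beside 0.05 over all genes.

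Il6st encodes gp130 and is represented by 4 probe sets, which did not move together. The brightest, 1371926_at, had intensities of 2883, 3172 and 3470 on the Colony arrays, against 1420, 1366 and 1503 on the A16 arrays. Every Colony array lay above every A16 array. The mean log2 intensity was 11.66 ± 0.14 in Colony cells and 10.50 ± 0.08 in A16 cells (SD, n = 2 each). The log2 FC was 1.16 (SE 0.14, 95% interval 0.83 to 1.5), a 2.24-fold higher level, with an adjusted p of 0.00175. It was called in 15 of 15 alternatives, and without Colony biological replicate 2 it was 1.06 (adjusted p = 0.00899).

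A second Il6st probe set, 1373140_at, ran the same way. It had intensities of 1292, 1333 and 1013 on the Colony arrays, against 519, 686 and 565 on the A16 arrays, with no overlap. Its log2 FC of 0.99 (SE 0.16, 95% interval 0.60 to 1.38) had an adjusted p of 0.00606, and its fold of 1.99 lay just under the threshold. This probe set was called in 10 of 15 alternatives, among them PLIER as log2(value + 16) with 1.13 and the fit without Colony biological replicate 2 with 1.18.

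The third, 1383489_at, had intensities of 627, 604 and 402 on the Colony arrays, against 268, 357 and 368 on the A16 arrays, which did not overlap in RMA but did in PLIER. It gave a log2 FC of 0.56 (SE 0.22, 95% interval 0.04 to 1.08, adjusted p = 0.124). The fourth, 1370957_at, had the opposite sign. It had intensities of 936, 829 and 1064 on the Colony arrays, against 1439, 1191 and 1264 on the A16 arrays, and all Colony arrays lay below all A16 arrays in both summaries. It gave a log2 FC of -0.41 (SE 0.15, 95% interval -0.76 to -0.06, adjusted p = 0.0949). The mean of the 4 probe sets gave a log2 FC of 0.58 (SE 0.13, adjusted p = 0.0112), under the fold threshold, so that the call for Il6st holds for its brightest probe set and not for the gene as a whole. Which part of the transcript each probe set reads was not analysed here.

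Il6r, the receptor chain that binds IL-6 and hands it to gp130, was also higher. It had intensities of 377, 454 and 390 on the Colony arrays, against 136, 144 and 201 on the A16 arrays, with no overlap. Its log2 FC was 1.26 (SE 0.19, 95% interval 0.80 to 1.71, adjusted p = 0.00445), and PLIER as log2(value + 16) gave 1.49. Without A16 biological replicate 1 it was 1.00 (adjusted p = 0.00429), at the fold threshold and no longer called, so that 1 receptor of the family was then called higher. With all cultures, then, the probe set of the ligand was lower and those of both chains of its receptor were higher, 1 probe set each for Il6 and Il6r and the brightest of 4 for Il6st.

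The receptors of the other ligands did not pass the test. Il11ra1, which binds IL-11, had a log2 FC of -0.30 (SE 0.13, adjusted p = 0.156). Lifr, which binds LIF, had 0.22 (SE 0.14, adjusted p = 0.319) by its brighter probe set and 0.00 by the other, and both stood low on all arrays, at intensities of 46.3 or less. Over the 6 measured receptors of the family, 2 rose (Il6st and Il6r), 0 fell and 4 did not pass, where 4.36% of all genes rose and 4.75% fell. At an unadjusted p under 0.05, limma put 2 higher and 0 lower, beside 19.4% and 15.9% of all genes. Their median log2 FC was 0.22, beside 0.05 over all genes.

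**Figure D2:**
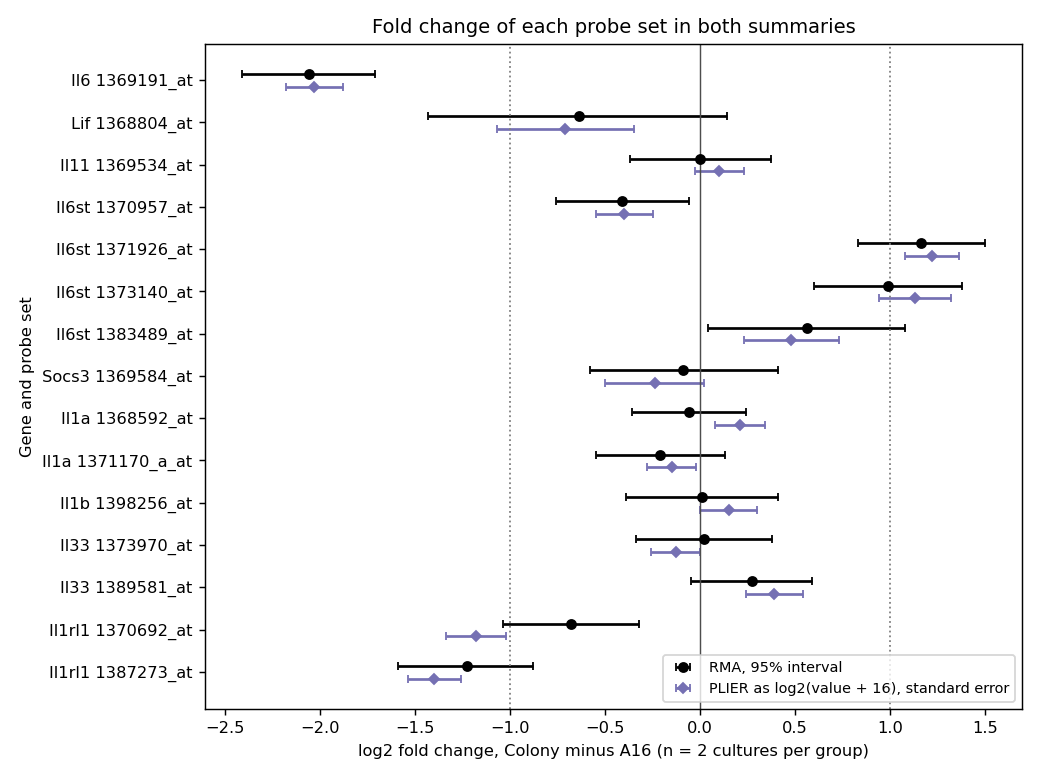
log2 FC (Colony minus A16, n = 2 cultures per group) of each of the 15 probe sets, as RMA with its 95% interval (black) and as PLIER with its standard error (violet); dotted lines mark a fold of 2. Il6 lies at -2.06 and the brightest Il1rl1 probe set at -1.23, and the Il6st probe sets spread between -0.41 and 1.16.

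Socs3, the inhibitor of gp130 signalling, had intensities of 185, 118 and 137 on the Colony arrays, against 136, 110 and 186 on the A16 arrays. The groups overlapped throughout. The log2 FC was -0.09 (SE 0.21, 95% interval -0.58 to 0.41, adjusted p = 0.83). Its sign turned with the treatment of the technical arrays, to 0.13 when they were averaged with biological replicate 2.

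Stat3, the transcription factor below gp130, had 2 probe sets, both with a negative log2 FC, that differed in size and call. The brighter, 1371781_at, had intensities of 1281, 1064 and 1030 on the Colony arrays, against 1242, 1476 and 2621 on the A16 arrays, which overlapped, with a log2 FC of -0.78 (SE 0.29, adjusted p = 0.109). The other, 1370224_at, had 479, 373 and 484 on the Colony arrays, against 2677, 2256 and 2664 on the A16 arrays. It was called lower, with a log2 FC of -2.50 (SE 0.14, adjusted p = 7.6e-05). At the first probe set 1 A16 array stood apart, while the A16 arrays lay close together at the second.

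Of the 14 genes of JAK-STAT3 signalling and its inhibitors, by their brightest probe set, 1 rose and 0 fell. The gene that rose was Socs5, a relative of Socs3, with intensities of 5991, 6112 and 7119 on the Colony arrays, against 2209, 2459 and 2581 on the A16 arrays. Its log2 FC was 1.42 (SE 0.15, adjusted p = 0.000947). At an unadjusted p under 0.05, limma put 5 of the 14 higher and 1 lower, beside 19.4% and 15.9% of all genes. Without A16 biological replicate 1 the brighter Stat3 probe set had a log2 FC of -1.26. Ptpn1, a phosphatase that acts on JAK kinases, had 0.68 (adjusted p = 0.0834) by its brightest probe set, and 1.02 without A16 biological replicate 2. With all cultures, PLIER as log2(value + 16) gave 1.40 (adjusted p = 0.00196) for that probe set, which was called higher. The other Ptpn1 probe set gave 0.88 in RMA (adjusted p = 0.0124), under the fold threshold. The median log2 FC was 0.21, beside 0.05 over all genes.

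Among 20 known targets of STAT3 and gp130, 2 rose, 3 fell and 15 did not pass, where 4.36% of all genes rose and 4.75% fell. Their median log2 FC was -0.12, beside 0.05 over all genes. Fgg, the gamma chain of fibrinogen and an acute phase gene of liver, had intensities of 2036, 2019 and 2321 on the Colony arrays, against 70.0, 82.4 and 59.0 on the A16 arrays, a log2 FC of 5.02 (SE 0.17, adjusted p = 1.39e-05). The other fibrinogen chains, Fga and Fgb, were not called, with a log2 FC of 0.06 and -0.21 by their brightest probe sets. Hp, Lbp and A2m were not called either, at -0.02, 0.16 and -0.56. Fga, Fgb, Hp, Lbp and A2m stood below the median of their array on all arrays. Fos, an immediate early gene that many signals besides STAT3 turn on, fell to 34.2, 49.5 and 47.8 on the Colony arrays, against 581, 571 and 602 on the A16 arrays. Its log2 FC was -3.73 (SE 0.14, adjusted p = 1.86e-05) by its brightest probe set, and another probe set gave -0.05.

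Pim3, a survival kinase, fell as well, with a log2 FC of -1.37 (SE 0.19, adjusted p = 0.00313). Junb, an AP-1 subunit, had a log2 FC of -1.16 (SE 0.21, adjusted p = 0.00934), and Bcl6, a repressor of transcription, had 1.04 (SE 0.13, adjusted p = 0.00226). Both calls lay near the fold threshold. Junb lost its call without Colony biological replicate 2 (-0.89) and without A16 biological replicate 2 (-0.98), and Bcl6 lost its call without A16 biological replicate 1 (0.96), without the technical arrays (0.99) and in PLIER as log2(value + 16) (0.94). A dimmer probe set of Vegfa, a vascular growth factor, was called lower with a log2 FC of -1.19 (SE 0.25, adjusted p = 0.0168), where the brightest gave 0.07. The paper's own values run the other way, with Vegfa higher in colony cells than in A16 cells by array and by quantitative PCR. It also reports more of the protein in colony cells. At an unadjusted p under 0.05, limma put 3 of the 20 higher and 8 lower, beside 19.4% and 15.9% of all genes. The targets thus moved in both directions, with more of them lower than higher at that threshold.

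The ligands of the IL-1 family were dim in both groups. Il1a, which is held in cells and freed by damage, had 2 probe sets. The first, 1368592_at, had intensities of 34.5, 38.8 and 38.7 on the Colony arrays, against 40.3, 37.9 and 39.4 on the A16 arrays, which overlapped. Its log2 FC was -0.06 (SE 0.13, 95% interval -0.36 to 0.24, adjusted p = 0.801), and its sign turned in PLIER. The second, 1371170_a_at, had 30.1, 29.9 and 25.1 on the Colony arrays, against 31.0, 32.2 and 31.9 on the A16 arrays. All Colony arrays lay below, by little, with a log2 FC of -0.21 (SE 0.14, 95% interval -0.55 to 0.13, adjusted p = 0.366).

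Il1b, the form secreted after cleavage by caspase 1, had intensities of 56.0, 49.4 and 51.1 on the Colony arrays, against 61.1, 57.9 and 44.8 on the A16 arrays. The groups overlapped, and the log2 FC was 0.01 (SE 0.17, 95% interval -0.39 to 0.41, adjusted p = 0.986). Il1rn, the antagonist that blocks the IL-1 receptor, had a log2 FC of 0.03 (SE 0.15, adjusted p = 0.916). Il18, a relative of Il1b that is cleaved in the same way, had -0.14 (SE 0.14, adjusted p = 0.561).

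Il33, the nuclear alarmin that binds ST2, also had 2 probe sets. The first, 1373970_at, had intensities of 22.8, 27.2 and 20.1 on the Colony arrays, against 24.0, 20.8 and 21.7 on the A16 arrays, with a log2 FC of 0.02 (SE 0.15, 95% interval -0.34 to 0.38, adjusted p = 0.94). The second, 1389581_at, had 51.9, 49.2 and 56.8 on the Colony arrays, against 46.9, 42.1 and 44.4 on the A16 arrays. All Colony arrays of the second lay above all A16 arrays in both summaries, but the log2 FC of 0.27 (SE 0.13, 95% interval -0.05 to 0.59, adjusted p = 0.211) did not pass the test.

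Of the 8 measured ligands and decoys of the IL-1 family, 0 rose and 0 fell. At an unadjusted p under 0.05, limma put 0 higher and 1 lower, beside 19.4% and 15.9% of all genes. For 7 of the 8 the probe set stood below the median of its array on all 6 arrays, so a difference in these ligands may not have been detectable. The median log2 FC was 0.02, beside 0.05 over all genes.

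Il1rl1, which encodes ST2, was by contrast well measured and lower in Colony cells. Its brightest probe set, 1387273_at, had intensities of 675, 639 and 623 on the Colony arrays, against 1659, 1658 and 1363 on the A16 arrays. The groups did not overlap, and stood at the 79.6 percentile or above on all arrays. The mean log2 intensity was 9.32 ± 0.05 in Colony cells and 10.55 ± 0.20 in A16 cells (SD, n = 2 each). The log2 FC was -1.23 (SE 0.15, 95% interval -1.59 to -0.88), a 2.35-fold lower level, with an adjusted p of 0.00177. It was called in 15 of 15 alternatives, between -1.42 and -1.09, and without Colony biological replicate 2 it was -1.20 (adjusted p = 0.0092).

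The other Il1rl1 probe set, 1370692_at, had the same sign. It had intensities of 183, 169 and 153 on the Colony arrays, against 284, 287 and 241 on the A16 arrays, again with no overlap. The log2 FC was -0.68 (SE 0.15, 95% interval -1.04 to -0.32, adjusted p = 0.0198), and its fold of 1.60 lay under the threshold. PLIER as log2(value + 16) gave -1.18 (adjusted p = 0.00493), which was called, and without Colony biological replicate 2 the RMA value was -0.58 (adjusted p = 0.0912). The mean of both probe sets gave -0.96 (SE 0.14, adjusted p = 0.0017). ST2 is made as a membrane receptor and as a soluble decoy, and which form each probe set reads was not analysed here.

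Il1rap, the partner that ST2 and IL-1R1 share, lay lower by a smaller step. It had intensities of 143, 149 and 170 on the Colony arrays, against 270, 312 and 230 on the A16 arrays, with no overlap. Its log2 FC was -0.71 (SE 0.17, adjusted p = 0.0234), and a second probe set gave -0.80 (SE 0.15, adjusted p = 0.0099), both under the fold threshold.

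Il1r1, the receptor that signals for Il1a and Il1b, had intensities of 328, 377 and 379 on the Colony arrays, against 360, 474 and 354 on the A16 arrays. The groups overlapped, with a log2 FC of -0.07 (SE 0.14, 95% interval -0.41 to 0.27, adjusted p = 0.8). Its 2 dimmer probe sets gave -0.46 (adjusted p = 0.0571) and -0.59 (adjusted p = 0.0969). Il1r2, the decoy receptor, stood at 21.9 or less on all arrays, with a log2 FC of 0.11 (SE 0.13, adjusted p = 0.618). Over the 6 measured receptors of the family, 0 rose, 1 fell (Il1rl1) and 5 did not pass. At an unadjusted p under 0.05, limma put 0 higher and 2 lower, beside 19.4% and 15.9% of all genes.

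By their brightest probe set, 0 of the 17 measured genes of signalling below the IL-1 receptor were called, while at an unadjusted p under 0.05 limma put 7 higher and 1 lower, beside 19.4% and 15.9% of all genes. A dimmer probe set of Tab3, an adaptor of the kinase TAK1, was called lower with a log2 FC of -1.31 (SE 0.22, adjusted p = 0.00623), where the brightest gave 0.38. Irak1bp1, a binding partner of the kinase IRAK1, had a log2 FC of 0.92 (SE 0.16, adjusted p = 0.00692) with all cultures and was called higher, at 1.09, without A16 biological replicate 1. Their median log2 FC was 0.22, beside 0.05 over all genes.

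Of 22 measured genes that fibroblasts are known to make in response to IL-1, by their brightest probe set, 2 rose (4.36% of all genes did), 7 fell (4.75% of all genes did) and 13 did not pass, with a median log2 FC of -0.46, beside 0.05 over all genes. Ccl2, the chemokine that draws monocytes, had intensities of 254, 305 and 332 on the Colony arrays, against 2453, 2560 and 2152 on the A16 arrays, a log2 FC of -2.93 (SE 0.15, adjusted p = 6.07e-05). Cxcl1, a chemokine for neutrophils, had 402, 448 and 489 on the Colony arrays, against 2616, 2597 and 2336 on the A16 arrays, a log2 FC of -2.44 (SE 0.14, adjusted p = 9.22e-05). Tnfaip3, which encodes the NF-kB inhibitor A20, had 37.2, 37.8 and 61.7 on the Colony arrays, against 339, 378 and 305 on the A16 arrays, a log2 FC of -2.78 (SE 0.24, adjusted p = 0.000465). These genes fell without overlap, as Il6 did, which is itself known as such a target.

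By their brightest probe set, the 2 that rose were both matrix metalloproteases. Mmp3 had intensities of 1449, 1542 and 1844 on the Colony arrays, against 43.4, 48.2 and 30.3 on the A16 arrays, a log2 FC of 5.48 (SE 0.22, adjusted p = 2.34e-05). The study's own quantitative PCR ran the other way for Mmp3, with a lower level in colony cells than in A16 cells. Mmp13 had a log2 FC of 2.10 (SE 0.13, adjusted p = 0.000127). The other genes that fell were Ptgs2, Tnfaip6, Zc3h12a and Ccl7, with log2 FC between -2.17 and -1.17. For Tnfaip6, which encodes a hyaluronan binding protein, another probe set gave -0.04. A dimmer probe set of Ptges, a prostaglandin E synthase, was called higher with a log2 FC of 1.14 (SE 0.19, adjusted p = 0.0066), where the brightest gave 0.17. All of these genes answer other signals too, and IL-1 itself was not measured as a protein.

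**Figure D3:**
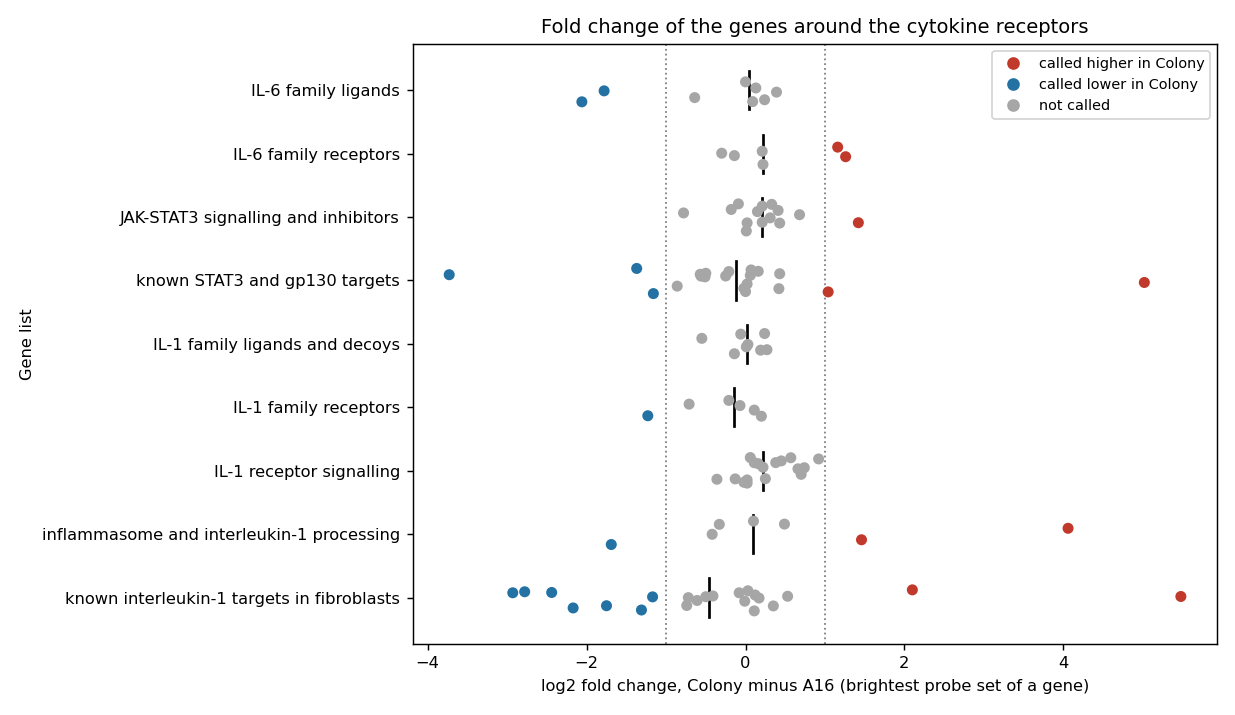
log2 FC (Colony minus A16) of each measured gene of the lists around the receptors, by its brightest probe set; red genes were called higher and blue genes lower in Colony cells, grey genes were not called, black ticks give the median of each list, and the dotted lines stand at a fold of 2. The IL-1 targets hold 7 blue and 2 red genes, the ligands and decoys of the IL-1 family none of either.

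The arrays hold RNA of whole cultures, so fewer cells of a type and less RNA per cell cannot be told apart. Of 12 fibroblast markers, 0 rose and 5 fell (Col1a1, Col3a1, Thy1, Fn1 and Postn), where 4.36% of all genes rose and 4.75% fell. The summed intensity of the 12 was 58056 to 62778 on the Colony arrays against 81654 to 92297 on the A16 arrays. Vim and S100a4 were bright in both groups, while Dcn and Lum were dim in both. Of 12 markers of macrophages and leukocytes, 1 rose (Csf1r, with a log2 FC of 4.01) and 0 fell, and the sum was 1812 to 1900 on the Colony arrays against 1394 to 1594 on the A16 arrays. Without Csf1r the sum was lower in Colony cells, at 1076 to 1274 on the Colony arrays against 1360 to 1549 on the A16 arrays. Cd14 was the brightest of the rest, at 534, 664 and 697 on the Colony arrays against 1020, 1002 and 891 on the A16 arrays. The lower sum thus rests largely on Cd14 (log2 FC -0.56, adjusted p = 0.0366, not called). At an unadjusted p under 0.05, limma put 1 of the 12 higher and 1 lower, beside 19.4% and 15.9% of all genes. Ptprc, which marks all leukocytes, had 36.8 to 42.2 on the Colony arrays against 34.7 to 38.4 on the A16 arrays, and Adgre1, a macrophage marker, had 15.3 to 19.0 against 14 to 15.4. Ptprc and Adgre1 were thus dim in both groups, and 9 of the 12 markers stood below the median of their array on all arrays.

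Il1rl1 also marks mast cells, and of 9 markers of mast cells 0 rose and 0 fell, also at an unadjusted p of limma under 0.05, with sums of 424 to 504 on the Colony arrays against 416 to 478 on the A16 arrays. Of 7 endothelial markers 0 rose and 0 fell, while limma put 2 higher and 1 lower at an unadjusted p under 0.05. At that limma threshold 19.4% of all genes were higher and 15.9% lower. The sum of the endothelial markers was 525 to 567 on the Colony arrays against 643 to 714 on the A16 arrays. It rests largely on Egfl7, the 1 that was lower, with 296, 285 and 305 on the Colony arrays against 491, 502 and 451 on the A16 arrays. The 2 that were higher, Vwf and Emcn, were dim. Of 8 epithelial markers Krt8 alone rose, and the sum was 3212 to 3958 on the Colony arrays against 966 to 1070 on the A16 arrays. Krt8 made up most of that sum, with 2891 to 3668 on the Colony arrays against 669 to 794 on the A16 arrays. The part of these shifts in the cytokine results was not tested.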

How the data were processed

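The authors hybridised RNA of colony derived and A16 cells to 6 Affymetrix Rat 230 2.0 arrays, summarised each array by RMA and again by PLIER, and deposited the 2 summaries as linear intensity. Versions of these programs were not given in the sources used. The design had assumed log2 values, and the RMA intensity was therefore put on the log2 scale here, with nothing added. Of 31099 probe sets, 57 controls were left out. Of the rest, 20826 have 1 gene symbol in the annotation and name a gene, and 436 have several and name none. The labels of the technical arrays name no biological replicate, and these arrays were joined with biological replicate 1.

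The model was fitted with limma (version 3.58.1, lmFit and eBayes, R version 4.3.3), with 4.76 prior degrees of freedom, after a test on simulated data. P-values were adjusted with Benjamini-Hochberg across the probe sets tested. Figures were drawn with Python 3.11.15. PLIER was tested both as log2(value + 16) and with nothing added. The methods' t-test was an alternative. The p-values measure the spread between samples that the labels call biological replicates, and 2 cultures per group limit the precision. No scan date is given, and no array batch was tested.

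The members and lists were chosen with earlier results of these data known. Named are all members with each probe set, from each list up to 4 called genes by size of log2 FC, and the partners Il6r, Il11ra1, Lifr, Il1r1, Il1r2, Il1rap, Il1rn, Il18 and Stat3. Mmp13, Ptgs2, Tnfaip6, Zc3h12a, Ccl7, Bcl6, Casp1, Vegfa, Tab3, Irak1bp1, Ptpn1, Ptges and the marker genes lie outside this rule and were named after their values were seen. The same holds for Fga, Fgb, Hp, Lbp and A2m. Promoter windows of RefSeq were found for 9 of the 10 genes.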

Additional observations from a re-analysis of the deposited data

How the results depend on the processing

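Il6, the brightest Il6st probe set and the brightest Il1rl1 probe set kept their direction and call in every limma fit that tested them, and all 3 calls were lost in the methods' t-test over the cultures after Benjamini-Hochberg adjustment. Leaving out dim probe sets removed Il6, so that 1 probe set of the 10 genes was called lower there. The number called higher was 2 with PLIER in both forms, with the 6 arrays as separate samples, with the technical arrays averaged with biological replicate 2 or left out, with the culture as a random block, with quantile normalization and after centring on the brighter probe sets, because Il6st 1373140_at then passed the fold of 2. Leaving out a biological replicate gave 1 to 2 called higher. With the mean of all probe sets of a gene, 0 genes were called higher and 1 lower (Il6).

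A paired fit with the replicate number as a replicate block called 3121 of all probe sets, beside 3045 without it, and left the calls of the 10 genes at 1 higher and 2 lower. The numbers share no stated day or culture. The culture differences of both groups correlated at -0.148, so a crossed replicate block, added after seeing the data, was fitted too and called 3135. The methods' t-test over the cultures called 2383 unadjusted and 0 after Benjamini-Hochberg, where limma called 3136 and 3045, and over the 6 arrays it called 2961 and 2627. At an unadjusted p under 0.05 over the 6 arrays it put 1 of the IL-6 family ligands higher and 2 lower. For the receptors these counts were 2 and 1, for JAK-STAT3 signalling 5 and 0, and for STAT3 and gp130 targets 2 and 8. They were 1 and 1 for the IL-1 family ligands, 0 and 3 for their receptors, and 6 and 1 for IL-1 receptor signalling. Mast cell markers gave 0 and 0, fibroblast markers 2 and 7, and endothelial markers 2 and 1. Each count is out of the measured genes given for its list above. The share of all genes under this t-test was not counted, so nothing is concluded from these counts.

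The sign turned only in members that were not called. Il11 gave 0.10 and 0.15 with PLIER, 0.05 with the 6 arrays, 0.10 and 0.04 with the technical arrays averaged with biological replicate 2 or left out, 0.03 with the random block, 0.04 after centring, and -0.17 to 0.17 without a biological replicate. Il1a 1368592_at gave 0.21 and 0.29 with PLIER. Il33 1373970_at gave -0.13 and -0.20 with PLIER, -0.09 without the technical arrays, -0.04 with quantile normalization and -0.13 to 0.18 without a biological replicate. Il1b gave -0.06 with the 6 arrays, -0.07 with the technical arrays averaged with biological replicate 2, -0.03 with the random block, -0.04 with quantile normalization and -0.20 to 0.21 without a biological replicate. Socs3 gave 0.03, 0.13 and 0.00 when the technical arrays were kept apart, averaged with biological replicate 2 or left out, and -0.39 to 0.22 without a biological replicate. The cause of these turns was not tested. Of 270 counts for the lists under alternatives, 258 stayed within 1.5 times and 12 moved further. Of the 15 probe sets, 7 lay below the median of their array on all arrays, which limits what could be measured for them.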

Other observations

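Of 7 measured genes of the inflammasome and of IL-1 processing, by their brightest probe set, 2 rose, 1 fell and 4 did not pass. Of all genes, 4.36% rose and 4.75% fell. The median log2 FC of the 7 was 0.10, beside 0.05 over all genes. Serpinb1a, an inhibitor of neutrophil proteases and inflammatory caspases, had intensities of 1341, 1497 and 1565 on the Colony arrays, against 82.3, 125 and 78.7 on the A16 arrays, a log2 FC of 4.06 (SE 0.16, adjusted p = 2.37e-05). Another probe set of Serpinb1a gave 1.65. Pycard, the adaptor ASC of the inflammasome, had 233, 172 and 200 on the Colony arrays, against 61.6, 66.6 and 82.2 on the A16 arrays, a log2 FC of 1.46 (SE 0.16, adjusted p = 0.00118).

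Casp4, an inflammatory caspase, fell to 70.3, 89.0 and 80.7 on the Colony arrays, against 253, 267 and 254 on the A16 arrays, a log2 FC of -1.69 (SE 0.13, adjusted p = 0.00024). Casp1, which cleaves IL-1 beta, had a log2 FC of 0.49 (SE 0.13, adjusted p = 0.0412), under the fold threshold. No array overlapped between the groups for Serpinb1a, Pycard and Casp4, while Il1b was dim in both groups.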
